A study of Mus musculus with 18 samples.

Results

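Germinal vesicle (GV) oocytes that lacked VPS34 were compared with floxed control GV oocytes across all genes. VPS34, encoded by Pik3c3, is the class III phosphatidylinositol 3-kinase. The members are 6 of the 18 samples of the series, the 3 control and the 3 knockout GV libraries, chosen by stage and genotype as labelled. Both groups came from 5-week-old mice with both alleles of Vps34 floxed. The conditional knockout (cKO) also carried Zp3-Cre, a transgene driven by the promoter of a zona pellucida gene that is active in growing oocytes, so that cells around the oocyte keep the gene. GV oocytes were taken 46 h after PMSG, a gonadotropin that drives follicle growth, and 5 oocytes were pooled into each Smart-seq2 library. No label ties a library to an animal, so the p-values measure the spread between these libraries, which may share an animal. The 6 ovulated metaphase II (MII) libraries of the same genotypes were taken 14 h after hCG. They served to test whether a difference was particular to the GV stage, and they entered an alternative fit of the GV difference.

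VPS34 phosphorylates phosphatidylinositol on early endosomes and on forming autophagosomes, and the product recruits proteins that move cargo towards the lysosome. It acts in complexes with a regulatory kinase-like subunit and Beclin 1, joined by ATG14 in autophagy or by UVRAG in endosomal traffic. The GV oocyte is arrested in the prophase of the first meiotic division. Its transcription falls silent at full growth, so that its mRNA is largely a store made earlier, when Zp3-Cre was already active. Gap junctions join it to the granulosa and cumulus cells of the follicle, which supply it with pyruvate and other metabolites.

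The 6 libraries held 2956881 to 4696626 gene counts, spike-ins left out. Levels are given as CPM, which scales each library to the same gene total. The labelled cell type was borne out by its markers. Of 25 oocyte markers measured, 24 passed the filter on low counts, and together they took 59852 to 79706 CPM per library. Sohlh1, a transcription factor of early oocytes, had no count in any of the 6 libraries. By the median, libraries of different genotype correlated across genes as closely as libraries of the same genotype. The lowest single pair was cKO 1 with cKO 3, at 0.929, while the lowest was 0.947 between genotypes and 0.9685 among controls. The median Pearson correlation of log2 CPM was 0.972 over the 9 pairs between genotypes, 0.970 over the 3 control pairs and 0.964 over the 3 cKO pairs, given as a description. The cKO 1 library stood apart in the gene model that covers ribosomal RNA, which took 11.1% of its gene counts, against 1.17% to 6.57% in the others, and in a gene to ERCC spike-in count ratio of 13.1, against 4.35 to 8.70 in the others.

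The transcriptomes of cKO and control GV oocytes were close to each other. Of 10911 genes tested, 9 (0.0825%) had an adjusted p under 0.05 (edgeR quasi-likelihood, Benjamini-Hochberg), and such genes are named as called below. Manba, Pik3c3, Rps3a3, Ccnd2, Spopl, Ldha and Hormad1 fell, 7 genes in all (0.0642%), while Aimp1 and Prr18 rose, 2 genes in all (0.0183%). Before adjustment 240 genes (2.2%) had p under 0.05, 104 (0.953%) higher and 136 (1.25%) lower in cKO. This count rested on the cKO 3 library: it was 1298 of 11371 genes tested without cKO 3, and 176 to 328 when any other single library was left out. DESeq2 called 13 genes (0.119%), and these included all 9. The median log2 fold change over all genes was 0.01, with quartiles of -0.15 and 0.18. Among all genes tested 5663 had a positive and 5225 a negative fold change.

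The fold changes were measured closely enough to bound most of them. The 95% interval of the log2 fold change lay wholly within 1 unit of 0, that is within 2-fold in both directions, for 7928 genes (72.7%). This share depended on the level of the gene. It was 9.84% among the 1382 genes with a mean under 5 CPM, 43.4% between 5 and 10 CPM, 84.02% between 10 and 50 CPM and 96.3% between 50 and 100 CPM. Under 10 CPM most intervals therefore reached beyond 2-fold, with 3 libraries of 5 oocytes a group. These shares do not say how large a difference the test could call. The smallest called fold change in size was that of Ccnd2, at -1.78, while Ppia, at 215 CPM in control, had -1.11 and was not called. The plot of fold change against level shows the narrow band of the tested genes and the few that lie away from it.

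**Figure D1:**
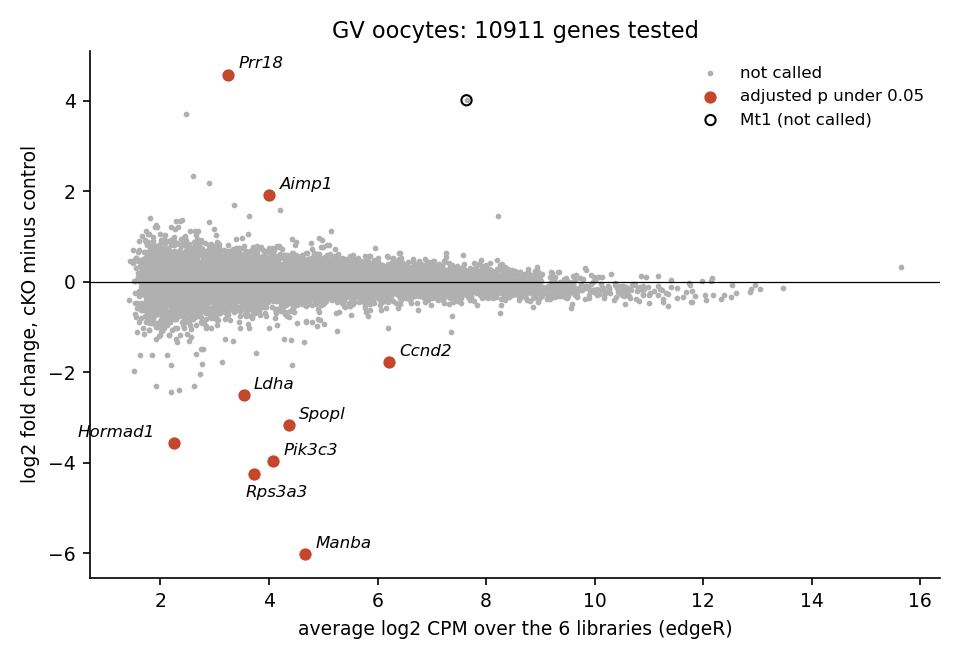
Log2 fold change (cKO minus control) against average log2 CPM for the 10911 genes tested in GV oocytes; grey points did not pass the test, red points are the 9 called genes and the open circle is Mt1. Most genes lie near 0, the 7 called genes below the line reach -6.02 (Manba), and Prr18 lies highest of the called genes at 4.58.

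The most abundant transcripts were those of the oocyte's own store, and none of the 10 most abundant genes was called. Zbed3, a partner of the maternal complex under the oocyte membrane, stood highest, with 12330, 11733 and 10811 CPM in controls 1 to 3 and 10041, 12089 and 10589 CPM in cKO 1 to 3. H1f8, the oocyte linker histone, had a log2 fold change of -0.16 (95% interval -0.54 to 0.22). Gdf9, a growth factor the oocyte sends to its follicle, had -0.06 (-0.52 to 0.39). Zp3, whose promoter drives the Cre, had -0.38 (-0.83 to 0.07). Spin1, Ldhb, Elobl, Bcl2l10, Nlrp14 and Ooep, the others of the 10, also had intervals within 2-fold. Over the 24 oocyte markers tested the median log2 fold change was -0.20, with 20 negative and 4 positive. None was called, and Zp2, a zona pellucida protein, was the lowest at -0.46 (SE 0.21, unadjusted p = 0.0477). These fold changes were relative to the library total after TMM scaling. With ERCC spike-ins as the scale the median over all genes was 0.46, and that of the oocyte markers was 0.25. The cKO 1 library had the highest gene to ERCC ratio, 13.1. The cKO minus control difference in this ratio was 2.26 over all libraries and 0.175 without cKO 1. Spike-in scaling without cKO 1 was not run.

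The targeted gene was examined before the others. Pik3c3 (chromosome 18, 30272747 to 30348126 in mm10) was read at 35.5, 28.8 and 25.8 CPM in control libraries 1 to 3, and at 1.56, 1.65 and 2.67 CPM in cKO libraries 1 to 3. All 3 cKO libraries lay below every control library. It was called in 14 of 14 alternative settings. The counts cover the whole gene and not only the floxed part, and they were known when the columns were matched to genotypes. Of the 9 tested genes of the VPS34 complexes only Pik3c3 was called. Pik3r4, the regulatory subunit, had a log2 fold change of 0.01 (SE 0.21), Becn1, which encodes Beclin 1, of 0.05 (SE 0.33), Atg14 of -0.01 (SE 0.19) and Uvrag of 0.04 (SE 0.17). Rubcn, an inhibitor of the UVRAG complex and the most abundant of the list, stood at 262 CPM in control and 259 CPM in cKO. Nrbf2, a further subunit, had no count in any GV library.

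**Figure D2:**
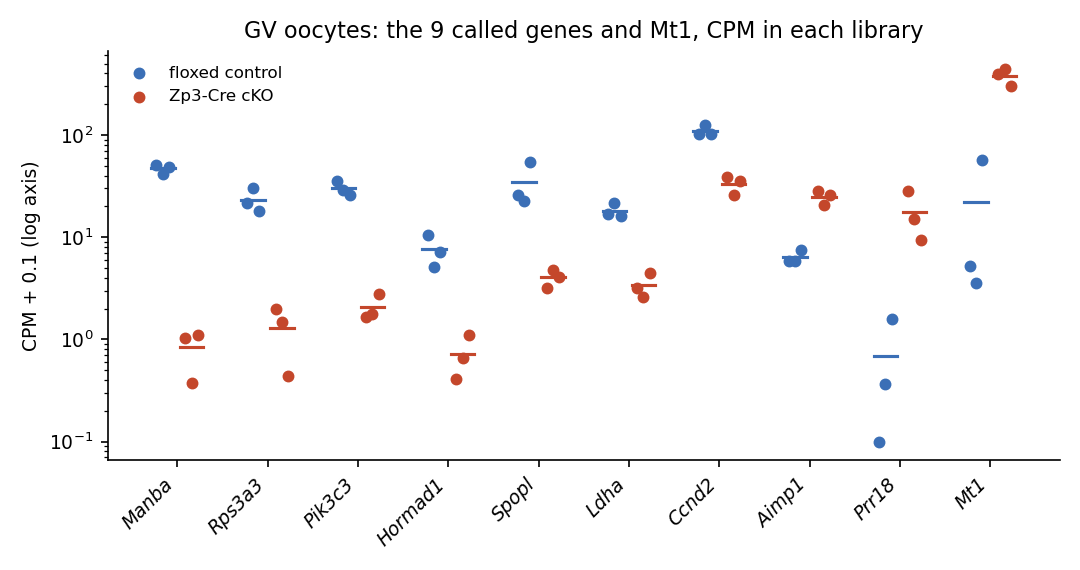
CPM + 0.1 on a log axis for the 9 called genes and Mt1 in each GV library, blue for the 3 floxed controls and red for the 3 Zp3-Cre cKO libraries, with a short line at each mean. The red points lie below the blue ones from Manba to Ccnd2 and above them for Aimp1, Prr18 and Mt1, and 1 control library of Mt1 stands at 56.9 CPM, far above the other control libraries.

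Manba, which encodes the lysosomal beta-mannosidase that trims mannose from glycoproteins under breakdown, had the largest fall. It lies on chromosome 3 (135485611 to 135571404, plus strand) and overlaps the pseudogene Oaz2-ps on the other strand. Controls 1 to 3 held 151, 157 and 229 counts, or 51.1, 41.4 and 48.8 CPM. The cKO libraries held 3, 1 and 3 counts, or 0.933, 0.276 and 0.9998 CPM. The transcript was close to absent in each cKO library while the 3 controls differed little among themselves. The log2 fold change was -6.02 (95% interval -6.80 to -5.24, edgeR adjusted p = 1.1e-05), and it stayed between -6.33 and -5.602 over the alternatives. Manba was called in 13 of 14 settings, the exception being 1 fit of all 12 GV and MII libraries (edgeR adjusted p = 0.102). Of 20 lysosomal glycosidases measured, 10 were tested, and Manba was the single one called. The median over the list was 0.13, with 7 positive and 3 negative. Man2b1, the lysosomal alpha-mannosidase, had 0.40 (SE 0.32), Glb1, the beta-galactosidase, -0.53 (SE 0.33), and Idua, the alpha-iduronidase and the most abundant member, 0.09 (SE 0.18).

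The sequence upstream of 3 called genes that fell is shown, each with a start site in the RefSeq promoter set of build GRCm38.p6. CACGTG is the core of the site read by TFEB, the transcription factor that switches on lysosomal genes, and by other factors of its kind. The motif reads the same on both strands, and 6.02% of 32851 promoters of this length hold it. The 250 bases before the start are given 5′ to 3′ on the gene's strand, and capitals mark CACGTG.
Manba (chr3:135485361-135485610): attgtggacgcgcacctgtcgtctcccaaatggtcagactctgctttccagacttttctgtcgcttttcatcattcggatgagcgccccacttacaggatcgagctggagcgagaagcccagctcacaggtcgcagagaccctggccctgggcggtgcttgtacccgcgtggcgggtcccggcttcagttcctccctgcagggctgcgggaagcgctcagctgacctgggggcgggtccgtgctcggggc
Ldha (chr7:46845554-46845803): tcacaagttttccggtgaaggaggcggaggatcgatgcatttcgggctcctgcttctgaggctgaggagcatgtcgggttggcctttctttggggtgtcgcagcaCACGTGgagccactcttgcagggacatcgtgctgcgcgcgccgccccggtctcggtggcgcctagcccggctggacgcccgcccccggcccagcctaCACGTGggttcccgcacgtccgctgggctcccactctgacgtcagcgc
Hormad1 (chr3:95559427-95559676): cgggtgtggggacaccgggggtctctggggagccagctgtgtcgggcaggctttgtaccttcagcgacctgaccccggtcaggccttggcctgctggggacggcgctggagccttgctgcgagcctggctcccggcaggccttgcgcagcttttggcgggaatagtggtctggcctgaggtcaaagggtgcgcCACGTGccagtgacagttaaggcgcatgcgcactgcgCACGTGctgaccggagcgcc
The letters occur 2 times before the first start site of Ldha, 2 times before Hormad1 and not in these 250 bases of Manba. Ldha has a second annotated start, and the 250 bases before that one do not hold the letters. Aimp1 and Prr18, which rose and were also searched, each have 2 annotated starts, and the letters occur before none of them. Of the 9 called genes 5 were searched. Pik3c3 was left out of the search by choice, and no entry was found for Spopl, Ccnd2 and Rps3a3. A match is a description of the letters and shows no binding.

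Genes next to Manba were looked at because Aimp1 and Hormad1 lie on the same chromosome, a choice made after their values were seen. Chromosome 3 carried 3 of the 9 called genes and 514 of the tested genes. At an unadjusted p under 0.05 it had 24 genes (4.67%, against 2.2% over all genes). Chromosome 18, with 12 of 283 genes (4.24%), and the X, with 14 of 350 (4%), had similar shares. Chromosome 3 had 14 genes with at least a 2-fold difference, or 11 without its 3 called genes. Each of the other autosomes and the X had 2 to 7. Within 5 Mb of Manba 37 genes were tested, of which 2, Manba and Aimp1, were called and 6 (16.2%) had an unadjusted p under 0.05. Without these 2 genes, which prompted the look, 4 of 35 genes (11.4%) did. For the whole chromosome without its 3 called genes 21 of 511 genes (4.11%) did. Gstcd stood at 30.1, 23.0 and 32.2 CPM in controls 1 to 3 and at 14.3, 15.7 and 17.0 CPM in cKO 1 to 3, without overlap (log2 -0.91, edgeR adjusted p = 0.909). Slc9b1, a sodium and proton exchanger, stood at 149, 120.3 and 169.7 CPM against 115, 90.7 and 110.3 CPM (log2 -0.52, edgeR adjusted p = 1). The nearest tested genes on either side of Manba, Ube2d3 and Nfkb1, had -0.16 (SE 0.22) and -0.24 (SE 0.34). Within 5 Mb of Pik3c3, 3 of 39 genes (7.69%) had an unadjusted p under 0.05, and 2 of 38 (5.26%) without Pik3c3 itself.

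Spopl, a paralog of Spop, encodes a protein that brings substrates to the cullin-3 ubiquitin ligase. It lies on chromosome 2 (23506220 to 23572106, minus strand), where Gm13331 overlaps it on the other strand. It was read at 25.7, 22.4 and 54.7 CPM in controls 1 to 3 and at 3.11, 4.68 and 3.999 CPM in cKO 1 to 3. The cKO libraries were close together, and control 3 was well above the other controls. The log2 fold change was -3.17 (95% interval -4.02 to -2.31, edgeR adjusted p = 0.00732), and without cKO 2 the call was lost (edgeR adjusted p = 0.124). Spopl was the single called gene among 31 tested genes of the cullin-3 ligase and its adaptors, whose median was 0.05. Spop itself had 0.23 (SE 0.21) and Cul3, the scaffold of the ligase, 0.38 (SE 0.23). Kbtbd8, the most abundant adaptor, stood at 718 CPM in control and 717 CPM in cKO.

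Ldha encodes the lactate dehydrogenase subunit typical of glycolytic tissue, whereas the oocyte mainly holds the Ldhb subunit. Ldha (chromosome 7, 46841475 to 46855627, plus strand) was read at 16.6, 21.4 and 15.97 CPM in controls 1 to 3 and at 3.11, 2.48 and 4.33 CPM in cKO 1 to 3. The groups did not overlap, and the spread within each was small. Ldha fell by 2.50 on the log2 scale (95% interval -3.21 to -1.79, edgeR adjusted p = 0.0107). The call was lost without control 2 (edgeR adjusted p = 0.0625) and without cKO 2 (0.160), and with spike-in scaling (0.278). Ldhb stood at 7810 CPM in control and 6891 CPM in cKO, with a log2 fold change of -0.23 (95% interval -0.64 to 0.17). Of 20 tested genes of lactate and pyruvate use Ldha alone was called, and the median was -0.04. Mpc1, a subunit of the mitochondrial pyruvate carrier, was the next lowest at -0.70 (SE 0.33, edgeR adjusted p = 1), while its partner Mpc2 had 0.06 (SE 0.19). Ldha has many processed copies in the genome, so reads shared with them make its level uncertain.

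Hormad1 encodes a protein of the meiotic chromosome axis that monitors pairing earlier in prophase. Its levels were low: 10.5, 5.01 and 7.03 CPM in controls 1 to 3, from 31, 19 and 33 counts, against 0.311, 0.551 and 0.9998 CPM in cKO 1 to 3, from 1, 2 and 3 counts. Each cKO library was below each control library. Hormad1 fell, with a log2 fold change of -3.57 (95% interval -4.73 to -2.41, edgeR adjusted p = 0.0256). It was called in 7 of 14 alternative settings, the fewest of the 9 genes, and was lost when any 1 of the 3 control libraries, cKO 1 or cKO 2 was left out (edgeR adjusted p from 0.0516 to 0.376). The filter at 10 CPM in 3 libraries removed the gene, as it did Prr18. Of 21 tested genes of the chromosome axis and of recombination, Hormad1 alone was called, and 15 of the fold changes were negative and 6 positive (median -0.08). Meioc, which keeps germ cells in meiotic prophase, was the highest at 1.35, with 4.06, 1.32 and 2.56 CPM in controls and 5.29, 8.82 and 6.33 CPM in cKO (edgeR adjusted p = 1). Syce2, a central element protein of the synaptonemal complex, stood at 644 CPM in control and 646 CPM in cKO.

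Ccnd2 encodes cyclin D2, which drives the proliferation of granulosa cells. It lies on chromosome 6 (127125162 to 127152193, minus strand), with Gm43126 and 9330179D12Rik on the other strand. It was read at 103, 126 and 102 CPM in controls 1 to 3 and at 38.6, 25.9 and 35.3 CPM in cKO 1 to 3, without overlap. Ccnd2 fell, with a log2 fold change of -1.78 (95% interval -2.26 to -1.30, edgeR adjusted p = 0.00732), and the call was lost without control 2 (0.0516), without cKO 2 (0.124) and with spike-in scaling (0.727). Among 20 tested genes of the G1 cyclins, their kinases and inhibitors, Ccnd2 was the single one called. Cdk6, a kinase partner of the D cyclins, was the next lowest at 12.2, 7.39 and 7.88 CPM in controls and 3.11, 1.65 and 5.33 CPM in cKO (log2 -1.49, SE 0.42, edgeR adjusted p = 1). Cdkn2c, an inhibitor of these kinases, had 1.03 (SE 0.47, edgeR adjusted p = 1), and the median of the list was 0.06.

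Markers of the follicle's somatic cells were read beside Ccnd2, since granulosa and cumulus cells adhere to GV oocytes. In pooled oocytes fewer attached cells and less RNA per cell cannot be told apart. Of 26 follicle markers measured, 10 were tested and none was called by edgeR, 4 having an unadjusted p under 0.05, all lower and without overlap, while DESeq2 called Inha alone. Over all genes 1.25% were lower at this p and 2.3% were lower without overlap. Inha, the inhibin alpha subunit (chromosome 1, 75507077 to 75510366), stood at 37.2, 36.4 and 28.3 CPM in controls 1 to 3 and at 14.6, 12.1 and 15.3 CPM in cKO 1 to 3 (log2 -1.32, SE 0.23, edgeR adjusted p = 0.1098, DESeq2 adjusted p = 0.0040). The steroid enzyme Hsd17b1 stood at 8.12, 5.28 and 6.39 CPM against 1.56, 1.10 and 0.9998 CPM (log2 -2.43, SE 0.44, edgeR adjusted p = 0.121). The controls of both genes lay above all cKO libraries. The inhibin subunit Inhbb had -1.63 (SE 0.46) and Gja1, the gap junction protein connexin 43 of granulosa cells, -1.26 (SE 0.34), again without overlap.

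Other follicle markers did not share this pattern. Serpine2, a protease inhibitor that made up most of the summed level, stood at 386, 319.5 and 421 CPM in controls and 269, 349 and 498 CPM in cKO (log2 -0.07). Cyp19a1, the aromatase of granulosa cells, had 0.07 (SE 0.25), Nr5a2, a nuclear receptor, -0.03 (SE 0.24), and Inhba 0.65 (SE 0.51). Of the 10 tested markers 8 were negative and 2 positive, with a median of -0.25, which was -0.58 without cKO 3 and 0.14 with spike-in scaling. The summed level of the 26 markers was 446 to 551 CPM in controls and 368 to 620.2 CPM in cKO, overlapping (exact permutation p = 0.7, two-sided). Without Serpine2 it was 137 ± 16.1 CPM (SD, n = 3) in control and 104.7 ± 15.6 CPM (n = 3) in cKO, without overlap, at an exact permutation p = 0.1, the smallest that 3 against 3 libraries allow. Leaving Serpine2 out was chosen after the values were seen. Tnfaip6 and Ptx3, cumulus matrix genes, had no count in any GV library, and Amh and Foxl2 reached at most 5 counts in a library. Markers below the filter went both ways. Lhcgr stood at 0, 0.528 and 0.639 CPM in controls and 2.49, 2.76 and 2.33 CPM in cKO. Fst stood at 4.06, 2.64 and 3.41 CPM in controls and 0.311, 0 and 1.67 CPM in cKO. On average Grem1 was higher and Amhr2 lower in cKO. Ccnd2, Cdk6, Inha, Hsd17b1, Inhbb and Gja1 were singled out as lower in all 3 cKO libraries, so their shared pattern follows from that choice. The part of attached cells in the levels of Ccnd2 and Cdk6 was not tested. No marker of theca and stroma reached the filter. Of the blood, endothelial and immune markers 2 were tested, C1qb at -0.20 and Pecam1 at 0.17. The dot plot of the follicle markers shows the 4 separated genes among the 10.

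**Figure D3:**
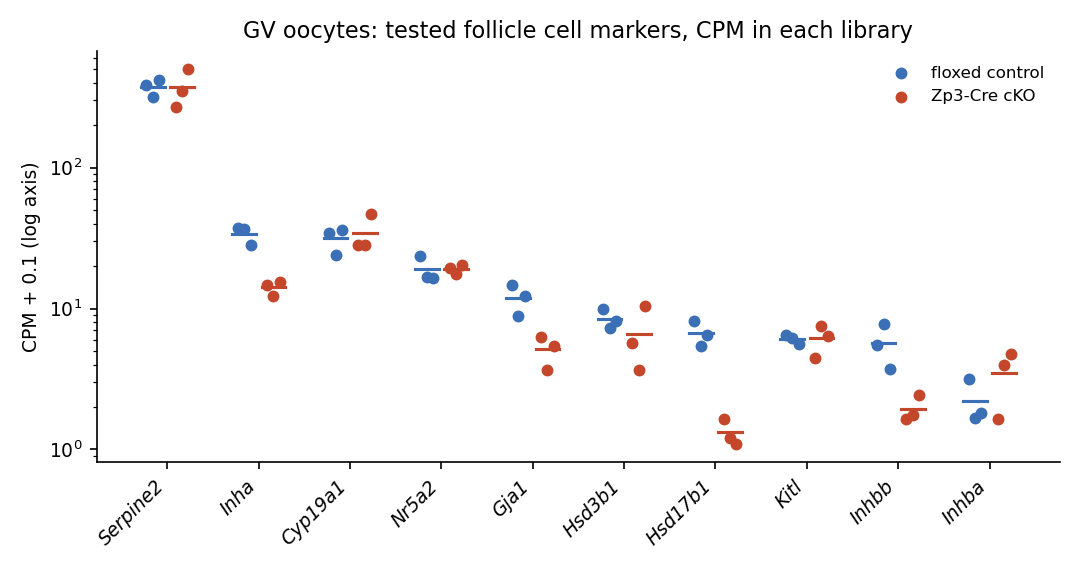
CPM + 0.1 on a log axis for the 10 follicle markers that passed the filter, in each control (blue) and cKO (red) GV library, ordered by control level, with a short line at each mean. Inha, Gja1, Hsd17b1 and Inhbb are separated between the groups, while Serpine2, Cyp19a1, Nr5a2 and Kitl overlap.

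Aimp1 and Prr18 were the genes that rose. Aimp1 encodes a scaffold of the complex that holds aminoacyl-tRNA synthetases, on chromosome 3 (132660499 to 132684370, minus strand), where its first bases overlap the start of Tbck on the other strand. It was read at 5.75, 5.81 and 7.45 CPM in controls 1 to 3 and at 28.3, 20.4 and 25.99 CPM in cKO 1 to 3. All cKO libraries were well above all controls. Aimp1 rose by 1.91 on the log2 scale (95% interval 1.31 to 2.50, edgeR adjusted p = 0.0232). The call was lost when any 1 control library or cKO 2 was left out (edgeR adjusted p from 0.0814 to 0.195). Tbck had 0.42 (SE 0.30). Of 22 tested synthetases and scaffold proteins Aimp1 was the single one called. The other fold changes ran from -0.23 for Dars to 0.28 for Mars1, and 18 of the 22 were positive (median 0.11).

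Prr18, which encodes a proline-rich protein (chromosome 17, 8337459 to 8344113, plus strand), was almost unread in controls. Controls 1 to 3 held 0, 1 and 7 counts and cKO 1 to 3 held 90, 54 and 28 counts. In CPM this was 0, 0.264 and 1.49 against 28.0, 14.9 and 9.33. The cKO libraries differed widely among themselves and all lay above the controls. The log2 fold change was 4.58 (95% interval 3.09 to 6.06, edgeR adjusted p = 0.0256), and the call was lost without control 1 (0.183), control 2 (0.198) or cKO 2 (0.160). Without control 3 it was still called, with a log2 fold change of 6.53 (edgeR adjusted p = 0.0323). No gene had at least 10 counts in each library of one genotype and at most 1 count in each library of the other.

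Rps3a3 (chromosome 13, 108670603 to 108671397, plus strand) is a retrotransposed, processed copy of Rps3a1, a ribosomal protein gene, and sits within Pde4d. It was read at 21.3, 30.1 and 17.9 CPM in controls 1 to 3 and at 1.87, 1.38 and 0.333 CPM in cKO 1 to 3 (log2 -4.26, edgeR adjusted p = 0.00248), and the call was lost without cKO 2 (0.0734). The parent gene Rps3a1 stood at 65.3, 73.9 and 47.7 CPM against 106, 90.4 and 79.7 CPM (log2 0.52, edgeR adjusted p = 1), and the copy Rps3a2 at 5.75, 11.6 and 4.47 against 1.24, 1.93 and 0.9998 CPM (log2 -2.39, edgeR adjusted p = 0.430). The copies were lower and the parent higher in cKO, and reads shared between them make all 3 levels uncertain. Pseudogenes as a class had 21 of 463 tested genes at an unadjusted p under 0.05 (4.54%), of which 19 were lower and 2 higher (median log2 -0.10). Other noncoding genes had 17 lower and 2 higher of 686 tested (median -0.13). Protein-coding genes had 100 lower and 100 higher of 9702 (median 0.02).

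Among the named genes that did not pass the test, Mt1 had the largest fold change. Mt1 encodes a metallothionein, a small protein that binds zinc and copper. It lies on chromosome 8 (94179082 to 94180327, plus strand). It was read at 5.07, 3.43 and 56.9 CPM in controls 1 to 3 and at 394, 439 and 299 CPM in cKO 1 to 3. The cKO libraries lay together and well above control 3, which itself was far above the other controls. The log2 fold change was 4.01 (SE 0.94, unadjusted p = 0.00372, edgeR adjusted p = 1), and without control 3 it was 6.44 (edgeR adjusted p = 2.8e-05). DESeq2 gave an adjusted p of 0.301 for all 6 libraries. Its neighbour Mt2 held 0 or 1 count in each GV library, and Mt4 had a log2 fold change of 0.77 (SE 0.39). The sequence before its start is shown for the metal response element, whose core is searched here as TGCNCNC, on both strands. These letters are common, being in 44.4% of the promoters searched, and capitals mark the 1 match.
Mt1 (chr8:94178839-94179088): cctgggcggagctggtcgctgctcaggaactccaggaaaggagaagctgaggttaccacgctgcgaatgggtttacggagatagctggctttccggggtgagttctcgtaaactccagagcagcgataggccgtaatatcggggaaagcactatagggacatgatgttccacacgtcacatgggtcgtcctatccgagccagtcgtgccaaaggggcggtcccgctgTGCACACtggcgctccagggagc
RefSeq of build GRCm38.p6 is the source. Bases past this annotated start were not searched, and the match shows no binding.

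Genes without overlap between the groups, a difference of 2-fold or more and 10 CPM or more in the higher group numbered 22 (0.202%), 6 (0.055%) higher and 16 (0.147%) lower in cKO. Of these, 4 higher and 10 lower genes were not called. Without overlap alone there were 792 genes (7.26%), of which 541 (4.96%) were higher and 251 (2.3%) lower in cKO. With TMM-scaled CPM the split was 385 higher and 389 lower. For 3 against 3 libraries, no overlap has a two-sided exact permutation p of 0.1, so alone it sets no gene apart. Besides Mt1, the higher genes were Celf1, Uchl1os and Mtss2. Celf1, an RNA-binding protein of splicing and mRNA decay (chromosome 2, 90940382 to 91019497), stood at 3.72, 2.90 and 1.07 CPM in controls and 8.40, 10.2 and 16.7 CPM in cKO (log2 2.19, edgeR adjusted p = 0.262), and DESeq2 called it (adjusted p = 0.0162). Uchl1os had 1.33 (edgeR adjusted p = 1). It is antisense to Uchl1, a deubiquitinase at 3871 CPM in control and 4061 CPM in cKO (log2 0.03), and without a stated strand setting the reads of the pair cannot be told apart.

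The lower genes that did not pass were Inha, Gja1, Scd2, Ctsl, Ppia, Tceal9, Rpl9, Gm6367 and the pseudogenes Gm15361 and Dppa3-ps. Scd2, a desaturase that makes monounsaturated fatty acids, stood at 6.76, 17.2 and 12.1 CPM in controls and 5.599, 3.58 and 1.67 CPM in cKO (log2 -1.78, edgeR adjusted p = 1). Ctsl, the lysosomal protease cathepsin L (chromosome 13, 64359337 to 64370890), stood at 23.0, 22.4 and 15.3 CPM against 6.84, 9.64 and 14.3 CPM (log2 -1.03, edgeR adjusted p = 1). In both genes the lowest control and the highest cKO library were close. Ppia, the peptidyl-prolyl isomerase cyclophilin A, stood at 218, 305.5 and 121 CPM against 107, 111 and 92.6 CPM (log2 -1.11, edgeR adjusted p = 1), and its many processed copies make this level uncertain. Gm15361 was called by DESeq2 (adjusted p = 0.0496) and stood at 17.6, 12.9 and 25.8 CPM against 4.36, 6.34 and 8.998 CPM (edgeR adjusted p = 0.387).

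The processes that VPS34 serves were then read across their genes. mTORC1 and TFEB sense amino acids at the lysosome, and none of the 24 tested genes of this list was called (median 0.04, 14 positive and 10 negative). Fnip2, a folliculin partner, was the lowest at 6.76, 5.81 and 5.54 CPM in controls and 2.18, 2.48 and 0.333 CPM in cKO (log2 -1.83, edgeR adjusted p = 1). Mcoln1, the lysosomal calcium channel, stood at 23.0, 22.7 and 27.7 CPM in controls and 12.1, 13.8 and 18.7 CPM in cKO (log2 -0.78, SE 0.24, edgeR adjusted p = 1), without overlap. The other phosphoinositide 3-kinases and their signalling had none of 16 tested genes called (median 0.06). Pik3cd, the most abundant, stood at 288 CPM in control and 312 CPM in cKO. Foxo1, a transcription factor that AKT inhibits, was the highest at 0.35 (SE 0.25). Clathrin, its adaptors and other endocytic proteins had none of 34 called (median 0.13, 26 positive and 8 negative), from -0.58 for Synj2 to 1.01 for Epn1, both under 5 CPM.

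Stress and quality-control genes held no called gene. Of the heat shock proteins and cochaperones none of 19 tested genes was called (median 0.07). Hsp90aa1, the inducible form of the chaperone HSP90, stood at 4340 CPM in control and 4738 CPM in cKO (log2 0.08, SE 0.23). Of the genes for degradation of proteins from the endoplasmic reticulum none of 23 was called (median 0.13, 17 positive and 6 negative). Of the genes of lipid droplets none of 18 was called (median 0.04). Dgat1, which makes triglyceride, was the highest there, with 2.71, 3.43 and 1.92 CPM in controls and 4.67, 7.16 and 7.33 CPM in cKO (log2 1.20, edgeR adjusted p = 1). Neither the 24 tested genes of calcium handling and egg activation (median -0.05) nor the 37 of Polycomb and histone methylation (median 0.10) held a called gene. In the last list Kdm1a, a histone demethylase, stood at 32.1, 28.5 and 25.98 CPM in controls and 42.3, 46.6 and 42.7 CPM in cKO (log2 0.56, edgeR adjusted p = 1). The median over all genes tested, 0.01, is the value to set these medians against. The plot of list members shows every tested member.

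**Figure D4:**
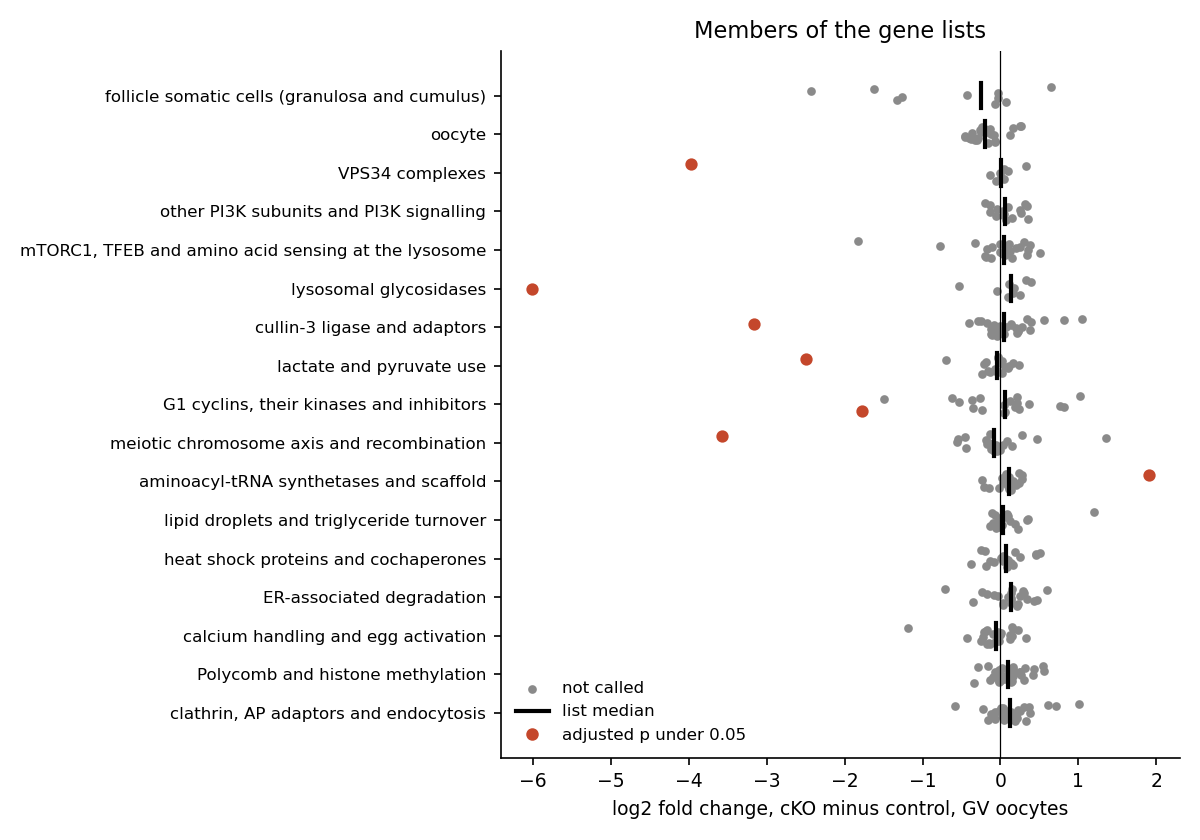
Log2 fold change (cKO minus control) in GV oocytes for each tested member of the lists with at least 3 tested genes, grey where not called and red where the adjusted p was under 0.05; black bars are list medians. The medians lie between -0.25 (follicle somatic cells) and 0.13, and no list holds more than 1 red point.

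Whether the GV differences were those of the MII oocyte was tested as an interaction over the 12 libraries of both stages. Of 11607 genes tested, 1 (0.00862%) was called, Spopl, and 608 (5.24%) had an unadjusted p under 0.05. Spopl was read in MII oocytes at 15.3, 19.02 and 26.9 CPM in controls 1 to 3 and at 24.5, 24.5 and 21.03 CPM in cKO 1 to 3, with the groups overlapping. The genotype difference at GV minus that at MII was -3.32 on the log2 scale (SE 0.48, edgeR adjusted p = 0.0168). The call was lost without GV cKO 1 or 2, MII control 2, or MII cKO 2 or 3, each of which left 0 called genes. With spike-in totals as library sizes Spopl was not called either.

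The other genes called at GV did not pass this test by edgeR with all libraries, TMM scaling and the filter on low counts. Without the filter edgeR called 18 genes, among them Aimp1, Ccnd2, Ldha, Prr18, Rps3a3 and Spopl. With the filter DESeq2 called the interaction of Manba, Aimp1 and Ccnd2 as well as Spopl and Speer4a. Manba was read at 0.818, 17.2 and 43.99 CPM in MII controls and at 39.9, 33.6 and 32.4 CPM in MII cKO libraries, so that the MII cKO oocytes held the transcript that the GV cKO oocytes lacked (interaction -6.77, SE 1.24, edgeR adjusted p = 0.355). Without MII control 1 or MII control 3, or with spike-in scaling, the interaction of Manba was called. Ccnd2 stood at 1.09 to 3.82 CPM in MII controls and 2.42 to 10.7 CPM in MII cKO libraries, far below the GV levels (interaction -2.70, edgeR adjusted p = 0.506). Aimp1 stood at 8.15 to 14.5 CPM in MII controls and 5.70 to 12.6 CPM in MII cKO libraries (interaction 2.14, edgeR adjusted p = 0.355). Prr18 stood at 5.998, 3.32 and 0 CPM in MII controls and had no count in the MII cKO libraries, so no fold is given. Its interaction was called without MII control 3, with spike-in scaling and without the filter. Mt1 stood at 8.45, 33.5 and 15.2 CPM in MII controls and at 54.03, 69.3 and 37.1 CPM in MII cKO libraries, above the controls at both stages (interaction 2.54, SE 1.16, edgeR adjusted p = 0.875). Hormad1 and Pik3c3 had negative fold changes at both stages, with log2 values of -1.68 (SE 0.64) and -2.19 (SE 0.39) at MII, neither called there (edgeR adjusted p = 0.530 for each). The plot of both stages sets these values side by side.

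**Figure D5:**
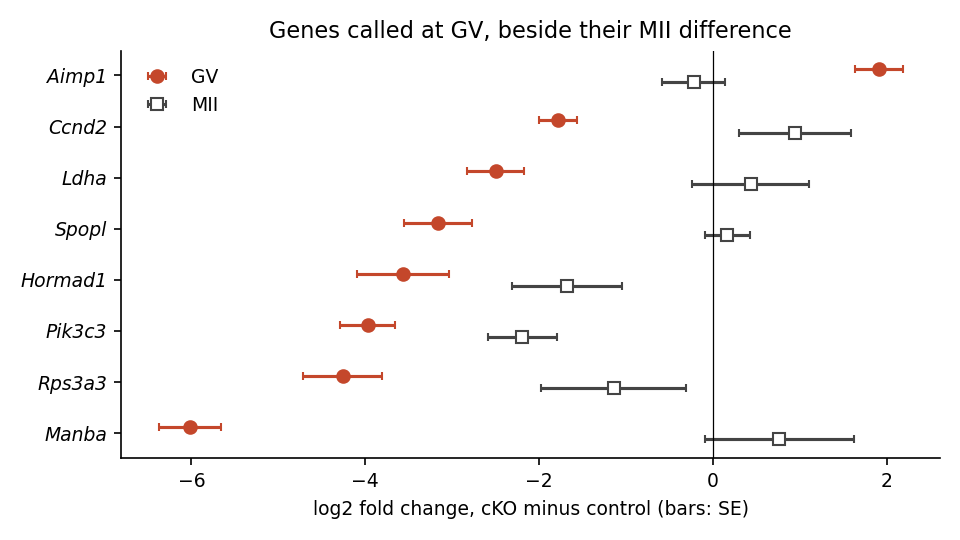
Log2 fold change (cKO minus control) of genes called at GV, with filled circles for GV and open squares for MII and bars of 1 SE on each side; Prr18, which was not tested at MII, is left out. Pik3c3, Rps3a3 and Hormad1 lie below 0 at both stages, while Manba, Spopl, Ldha and Ccnd2 lie below 0 at GV and above it at MII, from 0.17 (Spopl) to 0.94 (Ccnd2).

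None of 5 measures of whole libraries passed an exact test between the genotypes. Controls 1 to 3 had 13870, 13569 and 13482 genes at 1 CPM or more, and cKO 1 to 3 had 12968, 13325 and 12980 (exact permutation p = 0.1, the smallest possible, 0.5 after Benjamini-Hochberg adjustment over 5 measures). After each library was thinned to 2956881 counts, 12417, 12334 and 12230 genes in controls and 12142, 12234 and 12362 in cKO had at least 5 counts, and the groups overlapped. Mitochondrially encoded transcripts took 1.02% ± 0.0992 of gene counts in control and 0.876% ± 0.457 in cKO (SD, n = 3 each, exact permutation p = 0.7). The gene to ERCC ratio was 4.35 to 8.70 in control and 6.29 to 13.1 in cKO (exact permutation p = 0.5). Molecular identifiers are not part of Smart-seq2, so these values include uneven amplification.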

How the data were processed

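The authors deposited raw read counts, 1 row per gene symbol and 1 column per library. Per the submitters' processing notes, fastp, HISAT2 and featureCounts were used on mm10. Versions, strand setting and the handling of reads with several matches are not given in sources used here. In the column names the letter C was read as control and T as cKO, with Pik3c3 counts known. Another 6 columns match no label and were not used. The 92 ERCC rows were left out of library sizes and tests.

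Genes were tested with edgeR 4.0.16 (R 4.3.3, TMM, filterByExpr, robust quasi-likelihood). The 6 GV libraries were used for genotype and 12 GV and MII libraries for the interaction. DESeq2 1.42.0 was an alternative. No label states a pairing, so the replicate number was no block. Deviations of same-numbered libraries from their group means correlated at -0.256, 0.028 and 0.247 for numbers 1 to 3. Coordinates came from GENCODE M21 by symbol (10851 of 10911 genes matched). Each SE was derived from the log2 fold change and its F statistic.

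Named genes were Pik3c3, all called genes and the 10 most abundant genes. Up to 10 higher and 10 lower uncalled genes with at least a 2-fold difference, at least 10 CPM and no overlap were also named. From each list the called, highest, lowest and 2 most abundant members were picked, and not all of these are given. Pik3r4, Becn1, Atg14, Spop, Cul3, Mpc2, Nr5a2, Kitl, Uchl1 and list members below the filter were named outside these rules. Members with an unadjusted p under 0.05, the genes near Manba, Rps3a1, Rps3a2, Mt2 and Mt4 were added after their values were seen. The part, the 15 gene lists and the 4 marker lists were chosen with earlier results of these data known.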

Additional observations from a re-analysis of the deposited data

Results flagged for a closer look

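The genotype difference of Spopl, the cullin-3 adaptor, differed between the stages in the test over all 12 libraries. The interaction was -3.32 on the log2 scale (SE 0.48, edgeR adjusted p = 0.0168), with a fold change of -3.17 at GV and 0.17 at MII. At GV 3 of 3 cKO libraries lay below all controls, while at MII the groups overlapped. The spread of the GV controls, 22.4 to 54.7 CPM, was wider than that of the other groups. The call was not stable: it was lost with spike-in totals as library sizes and when GV cKO 1, GV cKO 2, MII control 2, MII cKO 2 or MII cKO 3 was left out.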

How the results depend on the processing

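The 9 calls at GV became 28 with no filter on low counts (6 higher, 22 lower), 3 in 1 fit of all 12 libraries (Aimp1, Pik3c3 and Spopl, with edgeR adjusted p from 0.0771 to 0.691 for the other 6), 13 with DESeq2, 11 with a replicate block, which kept all 9 and added Plk4 and Speer4a, and 7 at 10 CPM in 3 libraries. With spike-in totals as library sizes there were 11, of which 54.5% were higher against 22.2% by TMM. Leaving out 1 library gave 2 (without cKO 2, Manba and Pik3c3) to 10, with 4 without control 2. Without cKO 1 and control 2, the libraries of each group with the most ribosomal RNA and chosen after seeing the data, 8 remained. Over 14 settings Pik3c3 was called in 14, Manba and Spopl in 13 and Hormad1 in 7. The 1 interaction call became 5 with DESeq2, 3 with spike-in totals (Manba, Prr18 and Speer4a, without Spopl), 18 with no filter, 1 with the replicate block and 0 to 3 when a library was left out. The cKO minus control difference in follicle marker CPM ran from -107.8 to 18.3 (without cKO 1), that in mitochondrially encoded share from -0.399 to 0.0400 percentage points (without cKO 3), and that in ribosomal RNA share from -1.59 (without cKO 1) to 3.39. The difference in gene to ERCC ratio ran from 0.175 (without cKO 1) to 3.58 (without cKO 3). The cause of these shifts was not tested. Spike-in scaling turned the follicle marker median to 0.14. Groups of 3 libraries limit what genes under 10 CPM can show.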
